A study of Mus musculus with 12 samples.

Results

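The response common to 2 knockdowns in 3T3-L1 adipocytes, cells of a mouse line, was taken as the average of the USP7-si and TIP60-si groups (8 arrays) against control-si (4 arrays). Of 41174 gene probes tested, 58 were higher (0.141%) and 169 were lower (0.41%) in that average at a Benjamini-Hochberg adjusted p below 0.05 in limma. At an unadjusted p below 0.05 the same comparison held 3.84% higher and 5.73% lower probes. A probe counted as shared when it was also changed in the same direction, at an unadjusted p below 0.05, in each knockdown taken alone, which left 169 probes. Of these shared probes, 45 were higher (0.109% of those tested, covering 34 named genes, with 11 probes lacking a symbol) and 124 were lower (0.301%, covering 105 named genes, with 13 lacking a symbol). Both single comparisons use the same 4 control-si arrays, so a chance shift of the controls would appear in both with the same sign.

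All 12 arrays carried RNA of 3T3-L1 cells, which grow as preadipocytes and fill with fat droplets on differentiation, and each group had 4 arrays. The USP7-si cells had received small interfering RNA against Usp7 and the TIP60-si cells small interfering RNA against Kat5, the gene of TIP60. The control-si cells had received a control small interfering RNA, so all 3 groups share the electroporation. Per the series' design text it was delivered with Amaxa technology, a form of electroporation, into differentiated cells that were lysed 2 days later. The other channel of every array held a single reference, made from 3T3-L1 cells before differentiation. Values below are log2 ratios of sample over that reference, corrected for the fitted dye effect, and differences between groups are log2 fold changes. The labels do not give the siRNA sequences, and the design text speaks of 4 transfected replicates without saying whether they were separate cultures. The p-values therefore measure only the spread between these samples, which may be technical. In RNA from whole cultures, fewer cells of a type and less RNA per cell cannot be told apart.

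USP7 is a deubiquitinase known to stabilise several nuclear proteins, and TIP60 is a histone acetyltransferase that acts as a coactivator. Fos and Egr1 are immediate early genes, whose transcripts appear briefly after growth factor, stress or handling signals. Replication-dependent histone genes are transcribed mainly in S phase, and interferon-stimulated genes answer to interferon or to double-stranded RNA.

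Detection differed by dye. Median signal in the sample dye was 124 to 196, against a median background of 39.5 to 44. With the sample in Cy3, 96.6% to 98.3% of gene probes exceeded their local background by over 2 of its SDs. With the sample in Cy5 this was 85.2% to 89.8%, and each group had 2 arrays per dye orientation. Of 10 adipocyte markers, 9 were more than 1 log2 unit above the reference in all 3 groups, and 4 of 5 preadipocyte markers were below 0. Of the 3 macrophage, 3 endothelial and 3 muscle markers, none was above 1 in all 3 groups. The highest was Csf1r, at 0.93 in USP7-si, 1.10 in TIP60-si and 0.73 in control-si. No marker of any of these cell types was called. The Usp7 probe averaged -1.78 ± 0.23 in USP7-si, -0.18 ± 0.11 in TIP60-si and -0.11 ± 0.12 in control-si (SD, n = 4 each). Kat5 averaged -0.24 ± 0.10 in USP7-si, -1.20 ± 0.07 in TIP60-si and -0.18 ± 0.15 in control-si. The dimmer second Usp7 probe showed a change of only -0.02 in the average of both knockdowns.

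Fos, a subunit of the AP-1 transcription factor, and Egr1, a zinc finger transcription factor, showed the largest rises among the named shared genes. The window around the start of Fos is shown because the immediate early genes that rose are where the common rise was largest. The sequence, from RefSeq (GRCm38.p6, chr12:85473640-85473939, plus strand), reads 5′ to 3′ with 250 bases before and 50 bases after the annotated start, and the capitals mark the motif TATAAA:

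Fos: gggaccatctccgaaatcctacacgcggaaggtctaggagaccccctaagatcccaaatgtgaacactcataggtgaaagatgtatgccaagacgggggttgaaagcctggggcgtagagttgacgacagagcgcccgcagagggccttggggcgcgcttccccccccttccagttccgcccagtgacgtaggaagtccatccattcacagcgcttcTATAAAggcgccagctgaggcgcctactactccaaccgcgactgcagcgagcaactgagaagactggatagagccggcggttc

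The letters TGACGTCA and a CArG box were searched on both strands and neither occurs in that window. Bases beyond the window were not searched, so their absence from the promoter as a whole cannot be read from it. In the promoter windows of all 27025 genes in the table, TATAAA occurs in 14.2%, TGACGTCA in 1.88% and a CArG box in 1.57%. Of the 3 immediate early genes that rose, 2 had a window, and both held TATAAA. A match of letters is a description of the window and says nothing about a factor.

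Fos had log2 ratios of -0.0045, 0.04, 0.05 and -0.17 on the 4 USP7-si arrays and of -0.15, -0.13, -0.40 and -0.49 on the TIP60-si arrays. The control-si arrays were at -0.86, -0.84, -1.04 and -0.82. All 8 knockdown arrays lay above all control arrays, and the change was 0.74 ± 0.07 log2 (SE) on average (adjusted p = 0.000445, limma). It was 0.87 in USP7-si and 0.60 in TIP60-si, a difference of -0.27 for TIP60-si minus USP7-si (95% interval -0.45 to -0.10, adjusted p = 0.0702 in limma). Egr1 had -0.88, -1.13, -0.92 and -1.16 in USP7-si and -1.40, -1.36, -1.59 and -1.25 in TIP60-si, against -1.67, -1.85, -2.19 and -1.92 in control-si. No control array reached any knockdown array, and the average change was 0.70 ± 0.09 (adjusted p = 0.00264, limma). Egr1 was the only shared rise that was called larger in USP7-si (0.88) than in TIP60-si (0.51), with adjusted p = 0.0431 for the difference in limma. Of the 45 shared rises, 15 were larger in TIP60-si and 29 did not differ at that threshold.

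Ccn1, which encodes a secreted matricellular protein and is itself an immediate early gene, had -1.63, -1.72, -1.71 and -1.66 in USP7-si and -1.74, -1.68, -1.98 and -1.95 in TIP60-si. The control-si arrays read -2.02, -2.17, -2.16 and -2.06, all below every knockdown array. Its change was 0.34 ± 0.06 (adjusted p = 0.0182, limma). These were the 3 of 28 measured immediate early genes that rose, and none fell. The list's median change was 0.0078, beside -0.0021 over all 18295 genes, and the other 25 members did not pass. Over all genes, each by its brightest probe, 0.18% rose and 0.618% fell.

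**Figure D1:**
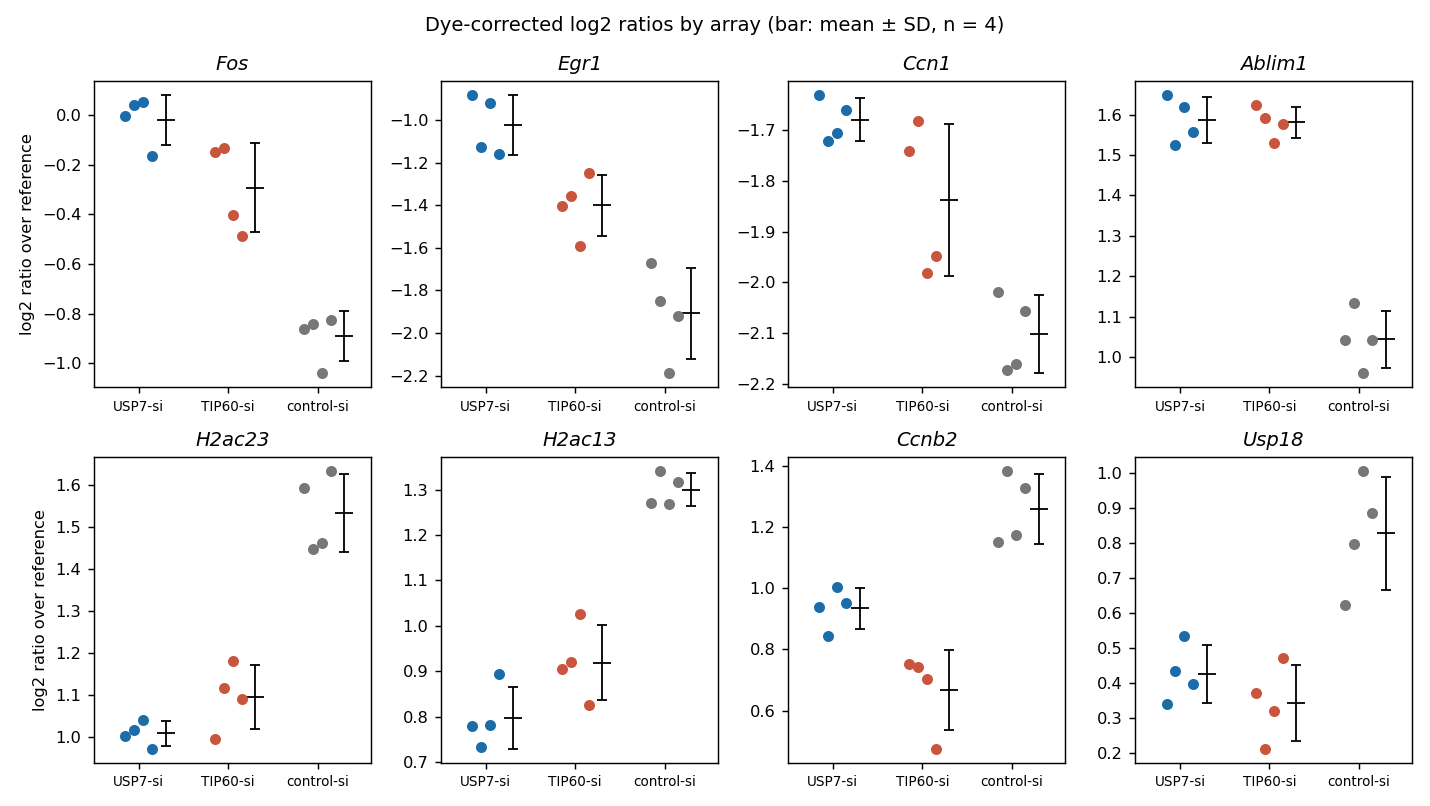
Dye-corrected log2 ratio over the reference, by array, for 8 genes of the shared response; points are arrays and bars are mean ± SD (n = 4). Fos, Egr1, Ccn1 and Ablim1 are higher and H2ac23, H2ac13, Ccnb2 and Usp18 lower in the USP7-si and TIP60-si arrays than in control-si.

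Ablim1, which encodes an actin-binding LIM protein, had 1.65, 1.53, 1.62 and 1.56 in USP7-si and 1.62, 1.59, 1.53 and 1.58 in TIP60-si. Control-si read 1.04, 1.13, 0.96 and 1.04, so the knockdown arrays did not overlap control-si. The change was 0.54 ± 0.04 (adjusted p = 8.98e-05, limma), and TIP60-si minus USP7-si was -0.01 (95% interval -0.11 to 0.10). The other 6 Ablim1 probes ranged from -0.15 to 0.02, so the change was seen by 1 probe. Gjd4, a connexin gene, changed by 0.55 ± 0.07 and Olfr598, an olfactory receptor gene, by 0.39 ± 0.05 (adjusted p = 0.00328 and 0.00315, limma). Tek, an angiopoietin receptor of endothelial cells, changed by 0.31 ± 0.04 (adjusted p = 0.00411, limma), with its other probe at 0.05. It was the 1 of 9 endothelial list genes that rose. That list had a median change of 0.0030, with array medians of -0.05 to 0.04 in USP7-si, -0.13 to -0.0020 in TIP60-si and -0.06 to -0.03 in control-si. The part of endothelial cells in the Tek result was not tested.

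The remaining named rises were not called in USP7-si alone. Rab7, a late endosome GTPase, changed by 0.64 ± 0.12 with 2 other probes at -0.01 and 0.02. Prkar1b, a regulatory subunit of protein kinase A, changed by 0.45 ± 0.07, and its other probe by -0.02. Serpinb1c changed by 0.41, Adgrg1 (an adhesion receptor) by 0.38 and Col15a1 (a basement membrane collagen) by 0.37. Tbc1d2 (a Rab GTPase activator) changed by 0.34 and Faah (a hydrolase of fatty acid amides) by 0.33. Rassf2 changed by 0.38 and Chst1, a sulfotransferase, by 0.34, and both were larger in TIP60-si (adjusted p = 0.00909 and 0.00867 for the difference, limma). The Adgrg1 call was lost in 10 of the 12 fits that left out 1 array, and the Rab7 call in 6. The other probe was at 0.31 for Serpinb1c, 0.15 for Col15a1, 0.06 for Tbc1d2, -0.01 for Faah and -0.08 for Rassf2. Of 20 shared rises in genes with several probes, 0 had another probe called the same way. Shared rises ranged from 0.17 to 0.74 log2 with a median of 0.32, and 4 exceeded 1.5-fold.

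Replication-dependent H2A genes made up a compact group of falls. Of 10 measured, 8 fell and 2 did not pass, and 6 of the 8 also passed the adjusted threshold in each knockdown on its own. The H2ac23 and H2ac13 windows from RefSeq (GRCm38.p6, chr13:21810117-21810416, plus strand; chr13:21716162-21716461, plus strand) are shown because they carry the largest H2A falls, with capitals marking CCAAT on either strand:

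H2ac23: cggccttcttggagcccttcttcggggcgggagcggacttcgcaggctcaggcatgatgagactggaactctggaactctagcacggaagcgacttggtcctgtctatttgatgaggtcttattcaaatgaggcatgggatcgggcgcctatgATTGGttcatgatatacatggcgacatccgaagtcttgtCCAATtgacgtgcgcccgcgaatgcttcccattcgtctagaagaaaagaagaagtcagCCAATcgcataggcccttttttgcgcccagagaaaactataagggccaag
H2ac13: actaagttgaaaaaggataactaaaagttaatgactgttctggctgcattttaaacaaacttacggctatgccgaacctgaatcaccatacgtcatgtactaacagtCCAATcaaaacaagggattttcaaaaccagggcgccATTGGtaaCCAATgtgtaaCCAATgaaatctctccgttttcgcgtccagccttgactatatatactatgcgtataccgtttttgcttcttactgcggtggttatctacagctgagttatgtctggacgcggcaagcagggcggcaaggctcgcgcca

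CCAAT was in the windows of 8 of the 8 H2A genes that fell, of 60.5% of the 86 shared falling genes with a window and of 37.9% of all genes, read on both strands. No test of these shares was made, and no share was computed for the H2A genes that did not fall or for H2B genes. The H2ac23 window also holds the annotated start of H2bc23, 168 bases away on the other strand. H2bc23 was not called (0.05, adjusted p = 0.949 in limma), so the marked stretch is not particular to a gene that fell.

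H2ac23 had log2 ratios of 1.004, 1.02, 1.04 and 0.97 in USP7-si and of 0.997, 1.12, 1.18 and 1.09 in TIP60-si. Control-si read 1.59, 1.45, 1.46 and 1.63, above every knockdown array. The change was -0.48 ± 0.05 (adjusted p = 0.000521, limma). H2ac13 had 0.78, 0.73, 0.78 and 0.89 in USP7-si, 0.90, 0.92, 1.03 and 0.83 in TIP60-si and 1.27, 1.34, 1.27 and 1.32 in control-si. Again no knockdown array reached a control array, and the change was -0.44 ± 0.05 (adjusted p = 0.000648, limma). H2ac10 changed by -0.37 ± 0.04 and H2ac1 by -0.35 ± 0.04. The other 4 that fell, H2ac15, H2ac7, H2ac20 and H2ac18, changed by -0.32, -0.28, -0.25 and -0.22, and H2ac8 and H2ac4, at -0.06 and -0.03, did not pass (these 6 are named after their values were seen). H2A genes are near-identical copies, so probes may read more than 1 of them and the genes are not independent.

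The H2A list had a median change of -0.30. Its per-array medians were 0.73 to 0.76 in USP7-si and 0.66 to 0.82 in TIP60-si, against 1.02 to 1.07 in control-si. Of 9 replication-dependent H2B genes, 0 were called (limma, adjusted p below 0.05; 0 also at an unadjusted p below 0.05) and their median was -0.00051. Of 4 H3 genes, 0 were called, with 3 at an unadjusted p below 0.05 and a median of -0.18. By their brightest probes, 0 of 5 H4 genes and 0 of 6 linker histone genes of the cluster were called, with 0 and 2 at an unadjusted p below 0.05. A second probe of the linker histone gene H1f2, however, was among the shared falls (-0.32, adjusted p = 0.0119 in limma), and its brightest probe was at -0.38 (adjusted p = 0.177). H1f2 is named after its values were seen. A test of H2A against H2B was not made. On chromosome 13, H2ac23 and H2bc23 start 168 bases apart on opposite strands: H2ac23 fell and H2bc23 showed 0.05 (adjusted p = 0.949, limma). The other divergent pair with both genes measured was H2ac1 and H2bc1, 281 bases apart, at -0.35 and -0.00051. Group means of H2ac1 (0.72 in USP7-si, 0.71 in TIP60-si, 1.07 in control-si) were close to those of H2ac10 (0.75, 0.74 and 1.12). Whether the H2ac1 probe reads other H2A copies could not be checked, so this pair may not describe H2ac1 itself.

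Among 11 replacement histones, H2az1 (-0.26 ± 0.04) and H2aj (-0.21 ± 0.04) fell by their brightest probes. The list's median was -0.19, with 10 members below 0 and 8 lower at an unadjusted p below 0.05. In TIP60-si alone 6 members were called lower, and in USP7-si alone 0. A second probe of H3f3b, which encodes the replacement histone H3.3, was also a shared fall (-0.26, adjusted p = 0.0217 in limma), with its other 2 probes at -0.22 and -0.21 (named after its values were seen). The H2aj call was lost in 9 of the 12 fits that left out 1 array, and the fall of H2az1 was larger in TIP60-si (adjusted p = 0.00668 for the difference, limma). Set, a histone chaperone and phosphatase inhibitor, had 0.12, -0.07, 0.01 and -0.02 in USP7-si and 0.04, 0.10, -0.13 and -0.02 in TIP60-si. Control-si read 0.47, 0.50, 0.31 and 0.35, above all knockdown arrays, and the change was -0.40 ± 0.06. Asf1b, which carries H3 and H4 to chromatin, changed by -0.23 ± 0.05. These were 2 of 23 chaperone and histone mRNA genes, and the Asf1b call was lost in 8 of the 12 fits that left out 1 array.

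Mitosis genes fell in number: 12 of 31 measured fell, none rose, and the list's median was -0.28. Its per-array medians were 0.89 to 0.97 in USP7-si and 0.71 to 0.98 in TIP60-si, against 1.10 to 1.31 in control-si. The Ccnb2 window (RefSeq GRCm38.p6, chr9:70421505-70421804, minus strand) is shown as that of the mitotic cyclin with the largest fall in the list, with CCAAT on either strand and TTTGAA in capitals:

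Ccnb2: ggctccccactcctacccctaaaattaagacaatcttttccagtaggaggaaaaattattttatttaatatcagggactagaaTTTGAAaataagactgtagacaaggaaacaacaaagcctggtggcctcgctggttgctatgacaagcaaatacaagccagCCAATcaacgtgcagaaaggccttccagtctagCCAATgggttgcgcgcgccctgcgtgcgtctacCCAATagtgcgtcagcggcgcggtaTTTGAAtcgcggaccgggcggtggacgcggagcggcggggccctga

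Of the 12 falling mitosis genes, 9 had a window. TTTGAA was in 6 of the 9, in 31.4% of the windows of all shared falls and in 18.1% of all windows. CCAAT was in 7 of the 9. TTTGAA was also in 5 of the 8 windows of falling H2A genes. The H2ac23 and H2ac13 windows above hold 1 match each, not marked there.

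Ccnb2, a cyclin that activates the mitotic kinase, had 0.94, 0.84, 1.003 and 0.95 in USP7-si and 0.75, 0.74, 0.70 and 0.47 in TIP60-si. Control-si read 1.15, 1.38, 1.17 and 1.33, so the groups did not overlap. The change was -0.46 ± 0.06 (adjusted p = 0.00404, limma), -0.32 in USP7-si and -0.59 in TIP60-si (adjusted p = 0.0409 for the difference). Cdc20, an activator of the anaphase-promoting complex, changed by -0.39 ± 0.05. Mki67, a coat protein of mitotic chromosomes, changed by -0.42 ± 0.07, and Nusap1, a spindle protein, by -0.45 ± 0.07. The brightest probe of Kif20a, a mitotic kinesin, changed by -0.28 ± 0.04 and a second by -0.41. None of the 12 passed the adjusted threshold in USP7-si alone. The mitosis count was 7, 3 and 4 without control-si replicate 1, 2 and 4 in turn, and 23 when arrays were scaled to equal spread.

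Of 37 G1/S and replication genes, 4 fell and none rose, with a median of -0.11. The list's median was -0.19 in USP7-si and -0.08 in TIP60-si, and 9 members differed between the knockdowns, 7 of them higher in TIP60-si. Per-array medians were 0.25 to 0.38 in USP7-si and 0.33 to 0.50 in TIP60-si, against 0.46 to 0.54 in control-si, so TIP60-si overlapped the controls. The genes that fell were the helicase subunits Mcm6 (-0.32 ± 0.06), Mcm4 (-0.26 ± 0.05) and Mcm2 (-0.27 ± 0.06), and Tyms, thymidylate synthase (-0.33 ± 0.06). Leaving out any 1 control-si or USP7-si array left 0 to 2 of these calls, and scaling arrays to equal spread gave 10. The other Mcm4 probe was at 0.04. The 3 other Tyms probes lay between -0.35 and -0.0055, with 2 of them called lower. Further large falls were of genes outside these lists. Tmpo, a lamina-associated protein gene, changed by -0.60 ± 0.11 with 3 other probes between -0.35 and -0.02. Stmn1, a microtubule destabiliser, changed by -0.54 ± 0.11, Pclaf, a PCNA-binding factor, by -0.45 ± 0.07, and Rcor1, a corepressor subunit, by -0.52 ± 0.06. The other probe was at -0.29 for Stmn1 and 0.04 for Pclaf, and the 2 others of Rcor1 were at -0.16 and -0.05. Of the 12 fits that left out 1 array, the Stmn1 call was lost in 7, the Tmpo call in 5 and the Pclaf call in 2.

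Interferon genes fell in 6 of 30 measured, and none rose, with 5 of the 6 shared. The list's median was -0.24. Per-array medians were 0.16 to 0.33 in USP7-si and 0.11 to 0.22 in TIP60-si, against 0.22 to 0.55 in control-si, which overlap. By knockdown, the list's median change was -0.15 in USP7-si and -0.33 in TIP60-si. In USP7-si alone 0 members were called, and in TIP60-si alone 14 were lower. The difference between the knockdowns was called for 7 members, all lower in TIP60-si. The Isg15 window is shown as that of the interferon list's largest fall (RefSeq GRCm38.p6, chr4:156200769-156201068, minus strand), with capitals for the motif GAAA, any 2 bases, GAAA, which was searched on both strands and has 3 overlapping matches:

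Isg15: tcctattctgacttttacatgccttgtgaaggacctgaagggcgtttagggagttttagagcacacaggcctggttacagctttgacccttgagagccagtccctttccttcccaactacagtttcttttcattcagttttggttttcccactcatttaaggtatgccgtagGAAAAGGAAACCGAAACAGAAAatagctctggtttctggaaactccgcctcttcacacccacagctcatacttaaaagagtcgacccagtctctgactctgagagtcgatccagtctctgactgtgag

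Of the 5 shared interferon genes that fell, 3 had a window. That motif was in 2 of those 3 windows, in 6.98% of the windows of all shared falls and in 3.49% of all windows.

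Isg15, a ubiquitin-like modifier, had -0.35, -0.16, -0.07 and -0.07 in USP7-si and -0.57, -0.57, -0.37 and -0.39 in TIP60-si, against -0.09, 0.09, 0.62 and 0.29 in control-si. The change was -0.55 ± 0.10 (adjusted p = 0.0284, limma), the lowest control array lay within the USP7-si range, and the call was lost in 7 of the 12 fits that left out 1 array. Usp18, which removes that modifier, had 0.34, 0.43, 0.53 and 0.40 in USP7-si and 0.37, 0.21, 0.32 and 0.47 in TIP60-si. Control-si read 0.62, 0.79, 1.01 and 0.88, above all of them, and the change was -0.44 ± 0.07 (adjusted p = 0.00858, limma). Ddx60 changed by -0.35 ± 0.06, larger in TIP60-si (adjusted p = 0.00307, limma), and Xaf1 by -0.31 ± 0.05. Irf9, a subunit of the interferon-activated transcription complex, was called in the average (-0.40) but was not shared: -0.08 in USP7-si and -0.73 in TIP60-si. The interferon count was 2, 3 and 1 without control-si replicate 2, 3 and 4 in turn, and 10 without TIP60-si replicate 4. Outside the list, the interferon-inducible GTPase gene Irgm2 (-0.52), Apol9a (-0.55) and Rtp4 (-0.46) fell, the first pair more in TIP60-si (adjusted p = 0.00192 and 0.0037 for the difference, limma).

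**Figure D2:**
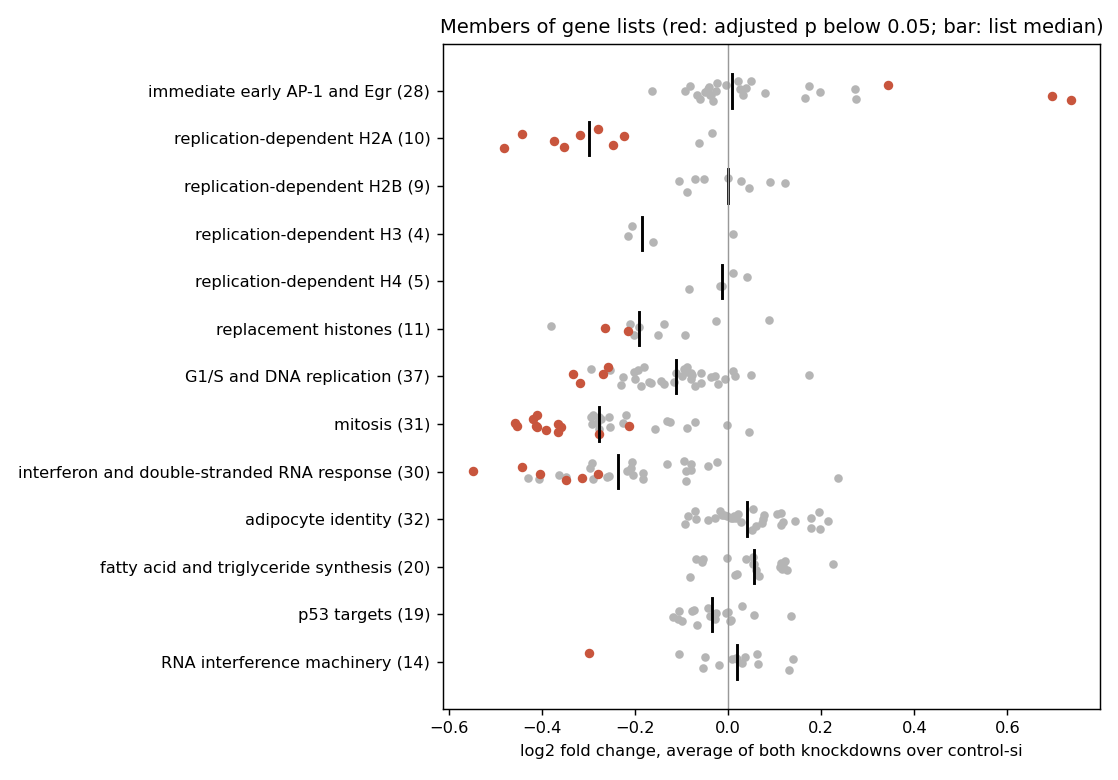
Log2 fold change of the average of both knockdowns over control-si for the measured members of 13 gene lists (number in brackets); red points have an adjusted p below 0.05 and the bar is the list median. The 8 H2A points in red lie left of 0, and the H2B points, none called, lie around 0.

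The remaining falls included single-probe changes. Bag6, a chaperone gene, changed by -0.50 ± 0.05 (adjusted p = 0.000313, limma) in 1 probe, and 3 others lay between 0.02 and 0.05. Filip1l changed by -0.54 ± 0.09, with 2 others at 0.0023 and 0.0035. Lars2, the mitochondrial leucyl-tRNA synthetase, changed by -0.46 ± 0.06. Trib3, a pseudokinase of the ATF4 response, changed by -0.34 ± 0.06, with its other probe at -0.03. Ran, a nuclear transport GTPase, changed by -0.30 ± 0.06. The Ran call was lost in 7 of the 12 fits that left out 1 array. Of 70 shared falls in genes with several probes, 12 had another probe called the same way. Shared falls ranged from 0.18 to 0.60 log2 in size, with a median of 0.32, and 1 exceeded 1.5-fold.

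**Figure D3:**
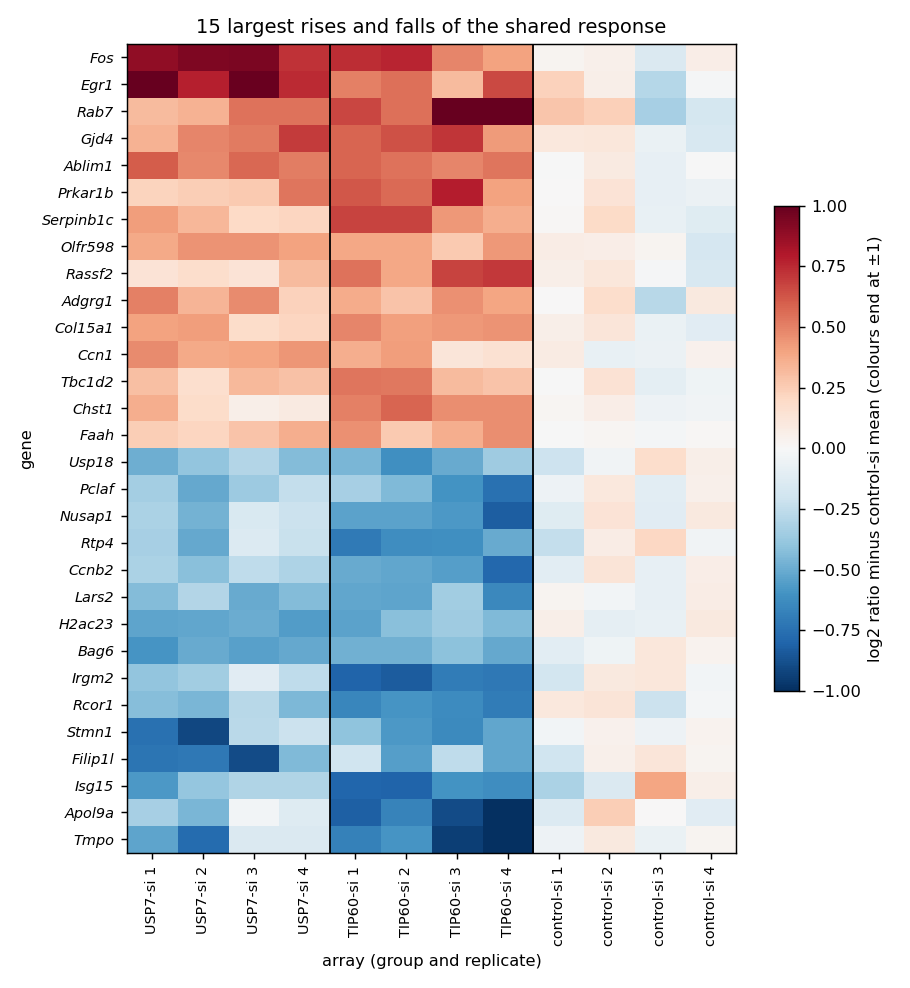
Log2 ratio minus the control-si mean for the 15 largest rises and 15 largest falls among named shared genes, by array (columns) and gene (rows); colours end at ±1. Fos reaches 0.944 above the control-si mean in USP7-si and 0.76 in TIP60-si.

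Among lists of adipocyte biology, 1 of 16 insulin signalling genes fell, Trib3, which is shared (-0.34). Of 20 cholesterol synthesis genes 1 was lower, Cyp51, which is not shared. In that list 15 genes were above 0 and 5 below, with a median of 0.08. At an unadjusted p below 0.05, 4 of its genes were higher and 1 lower. Of 32 adipocyte identity genes 0 were called in either direction (5 at an unadjusted p below 0.05, all higher), with a median of 0.04 that became -0.16 when arrays were scaled to equal spread. Fatty acid synthesis (20 genes), p53 targets (19), heat shock (13), oxidative phosphorylation (20), ribosomal proteins (17) and proteasome (26) also had 0 calls in limma. At an unadjusted p below 0.05 these held 0, 2, 3, 1, 5 and 2 genes.

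For most shared probes, 29 rises and 107 falls, no difference in size between the knockdowns was called. Members were selected on these same values, and more were called in TIP60-si (43 rises, 115 falls) than in USP7-si (8 and 19). The sizes and counts that follow for shared probes are thus a description only. The median change of shared rises was 0.23 in USP7-si and 0.41 in TIP60-si, and of shared falls -0.27 in USP7-si and -0.35 in TIP60-si. The difference was called for 33 of the 169 shared probes, beside 5.98% of all probes (2.3% higher and 3.68% lower in TIP60-si than in USP7-si): 15 rises and 17 falls were larger in TIP60-si, and 1 rise in USP7-si. On its own USP7-si had 13 higher (0.0316%) and 23 lower (0.0559%) probes, and TIP60-si had 638 (1.55%) and 1190 (2.89%). Passing in each knockdown alone were 8 higher (0.0194%) and 17 lower (0.0413%). The higher ones comprised 7 named genes, Fos, Egr1, Ccn1, Ablim1, Gjd4, Olfr598 and Tek, and 1 probe without a symbol. The 8 knockdown arrays all lay beyond the 4 controls for 35 of the shared rises and 99 of the shared falls. Over all probes that held for 0.464% and 0.857%, and members were selected on the same contrast, so nothing is read from it.

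**Figure D4:**
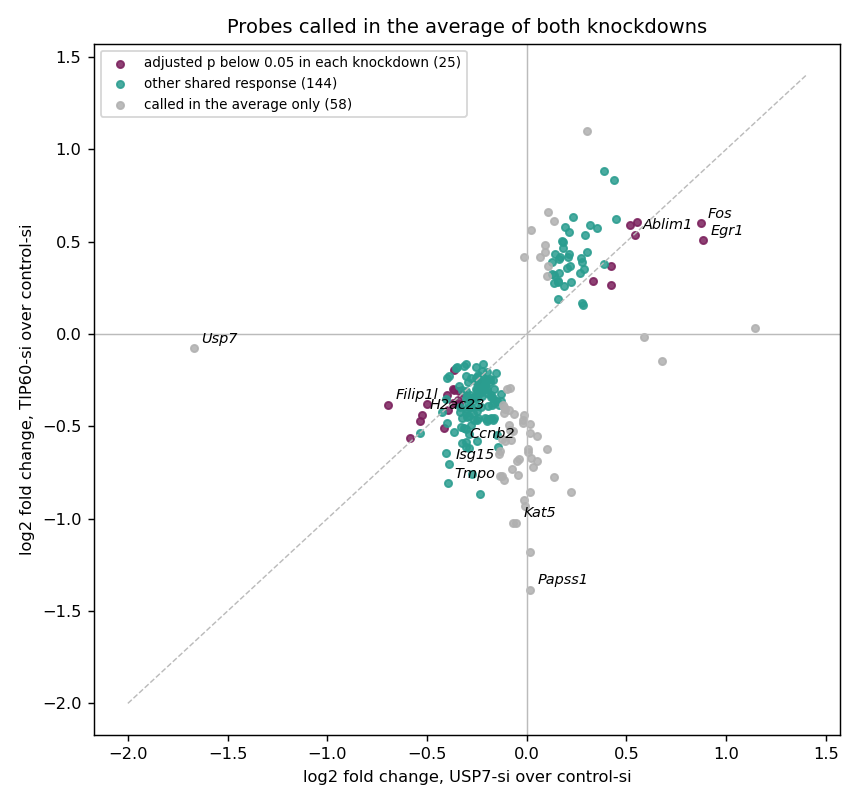
Log2 fold change over control-si of the 227 probes called in the average, TIP60-si on the vertical and USP7-si on the horizontal axis; both share the control-si arrays, so agreement in sign is partly built in. Usp7 and Papss1 lie near 0 on one axis and are not shared.

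Most of the 58 called but unshared probes passed an unadjusted p of 0.05 in 1 knockdown only. That is not a test of a difference between the knockdowns: Morf4l2, for example, was at -0.12 in USP7-si (unadjusted p = 0.058, limma). Of 13 unshared rises, 10 passed an unadjusted p of 0.05 in TIP60-si and not in USP7-si, as did 43 of 45 unshared falls. Besides Usp7, Papss1, a sulfate-activating enzyme, showed -1.39 in TIP60-si and 0.02 in USP7-si. Cyp51, an enzyme of cholesterol synthesis, showed -1.18 in TIP60-si and 0.02 in USP7-si. Its 3 other probes lay between -0.08 and -0.04 in the average of both knockdowns, and 0 were called. Gcc1 and 2 probes without a symbol were the largest unshared rises.

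The response rests in part on single arrays. Without control-si replicate 4 the average called 14 rises and 42 falls, and without TIP60-si replicate 4 it called 72 and 202. In each dye orientation all 45 shared rises and all 124 shared falls kept their sign in each knockdown, but the members were chosen on these same arrays, so that is a description only. On the 6 arrays with the sample in Cy3 alone, 5 rises and 2 falls met the definition of shared, and on the 6 with the sample in Cy5, 0 and 0.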

How the data were processed

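RNA was measured on 12 two-colour arrays, 4 per group. Per the deposited protocol text, the authors scanned them on an Agilent G2565BA scanner, read the spots with Imagene and normalized by print-tip loess without background subtraction. The deposited log2 value table held log2 of sample over reference, which equalled the authors' normalized files to within 5e-06. The scanner files deposited by the authors hold linear intensity of spot and local background, used only for alternatives and detection.

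Ratios of 41174 gene probes (4046 control spots were left out) were fitted with lmFit and eBayes in limma 3.58.1 under R 4.3.3, with group and dye orientation as terms. P-values are two-sided and were adjusted over all gene probes by the Benjamini-Hochberg method. Of these probes 34186 had 1 symbol and 6988 had none. List genes were represented by their brightest probe. Intervals are 95% intervals of the model. The fit was run on simulated data with independent noise for each probe and array. Such data hold no chance shift shared by probes of the control arrays, so that run does not address such a shift. The number of arrays limits the precision.

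Named genes were Usp7, Kat5, Fos, Egr1, H2ac13 and H2ac23, the 15 largest shared rises and falls, the 3 largest unshared either way, and up to 4 members of each of 32 lists with the smallest p. Members and lists were chosen with earlier results of these data known. Promoter windows came from RefSeq. Alternatives were other normalizations, scalings, weights, filters, dye handling, a replicate block and leaving out each array. No slide or scan block was run, since the headers used here give none.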

Additional observations from a re-analysis of the deposited data

Results flagged for a closer look

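In 180 groups of 4 arrays (60 named genes, 3 groups each), 4 had 1 array far from the other 3 by Dixon's test, against about 9 that chance gives at 1 in 20. The Prkar1b log2 ratio of USP7-si replicate 4 was 1.81, above the other USP7-si arrays with 1.54 the highest of them. In TIP60-si replicate 4, Ccnb2 was at 0.47, below the other TIP60-si arrays at 0.70 to 0.75, and Nusap1 at 0.71, below the others, of which 0.95 was the lowest. Kat5 in control-si replicate 2 was at -0.40, below the other control-si arrays at -0.13 to -0.10.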

How the results depend on the processing

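Counts are given as higher and lower. Leaving out 1 array at a time, the average called 14 to 72 and 42 to 202 probes, the shared response held 13 to 51 and 27 to 141, probes passing in each knockdown alone were 3 to 10 and 5 to 23, and the difference between knockdowns was called for 14 to 39 of the shared probes. The lowest counts of the average and shared response came without control-si replicate 4 and the highest without TIP60-si replicate 4. The average's falls numbered 93, 49, 84, 106 and 106 without control-si replicates 1 and 2 and USP7-si replicates 1, 3 and 4, and its rises 38, 21, 31 and 36 without control-si replicates 1 and 3 and USP7-si replicates 1 and 3. Shared falls numbered 72, 33, 79, 53, 78 and 75 without control-si 1 and 2, TIP60-si 2 and USP7-si 1, 3 and 4, and shared rises 20 and 28 without control-si 3 and USP7-si 1. Among probes passing in each knockdown alone, rises numbered 3 to 5 without control-si 2, 3 or 4, TIP60-si 1 or USP7-si 2, 3 or 4, and falls 5 to 9 without control-si 2 or 4 or any USP7-si array. The difference was called for 16, 17 and 14 without TIP60-si 3, USP7-si 1 and USP7-si 3. For the average, the shared response, passing in each knockdown alone and the difference, in that order, other settings gave the following. Normexp background correction with loess gave 26 and 110, 18 and 79, 5 and 16, and 36. Scaling arrays to equal spread gave 80 and 307, 68 and 253, 17 and 36, and 22. No dye term gave 21 and 65, 18 and 45, 4 and 5, and 17. Array weights gave 94 and 263, 70 and 181, 10 and 26, and 43. Ordinary variances gave 10 and 20, 9 and 15, 1 and 8, and 9. The Cy3 arrays alone gave 5 and 3, 5 and 2, 1 and 0, and 9, and the Cy5 arrays alone 0 and 1, 0 and 0, 1 and 0, and 0, with 6 arrays in each fit. The cause of the other moves was not tested. With a replicate block in place of the dye term the average called 62 and 192 and the shared response held 50 and 145. After removal of group and dye means, same-numbered arrays had correlations of -0.25 to 0.32, with 4 of 12 pairs over 0.1. Arrays with different numbers were not compared, so these values do not settle whether the numbers pair the samples. Of 60 named genes and probes, 25 kept their call without any 1 array, among them Fos, Egr1, H2ac13, H2ac23, H2ac10 and H2ac1. The call was lost in 1 to 6 of the 12 such fits for 24 and in 7 or more for 11. Those 11 were Ran, Stmn1 and Isg15 (7 fits each), Asf1b (8), Nfkb1, Gcc1 and H2aj (9 each), Adgrg1, Mcm2 and Morf4l2 (10 each) and Morf4l1 (12). The H2A falls numbered 6 to 8 of 10 without any 1 array. On the 6 Cy3 arrays alone, the H2A, mitosis and interferon falls each numbered 0. The mitosis falls numbered 3 without control-si replicate 2 and 4 without control-si replicate 4, and the interferon falls 2 and 1 without those arrays and 10 without TIP60-si replicate 4. Scaling to equal spread gave 23 mitosis and 10 G1/S falls. No named gene changed direction in any of the 22 alternatives. Probes at low signal limit what can be called.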
